A study of Mus musculus with 19 samples.

Results

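Epithelial and mesenchymal state markers are described here as a set of 10 genes: the cadherins Cdh1 and Cdh2, the surface adhesion protein Epcam, the splicing regulator Esrp1, the keratins Krt7, Krt8, Krt18 and Krt19, the intermediate filament protein Vim and the calcium-binding protein S100a6. Every probe that the platform's gene annotation assigned to these symbols was taken, without regard to its values. Of the 16590 named genes on the array, 9 belong to the set, with 12 probes. No probe was named for Epcam in the annotation used, so Epcam was not analysed here. Cdh2 had 4 probes, none of which passed the detection filter, which left 8 genes for testing.

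The study measured total RNA on an Illumina bead array in embryonic stem cells of the mouse (ESC) and in cells resembling the epiblast (EpiLC), to ask what the loss of the forkhead transcription factor Foxd3 changes in each state. Each cell type was read with ethanol and with tamoxifen, which makes 4 groups of 3 samples. Tamoxifen at 1 µM for 36 h served to induce the Foxd3 knockout, and ethanol-treated cells stood as the wild-type controls. All cells were kept in Knockout DMEM with serum, and the ESC also received Lif and 2i, the pair of kinase inhibitors against GSK and MEK. The driver of the recombinase and the number of clones are not given in the sources used here. Because the controls received no tamoxifen, the drug and the deletion cannot be told apart. The single Foxd3 probe was detected on 0 of 19 arrays, so these arrays do not show the loss of Foxd3, and the genotype rests on the labels.

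Epithelial cells adhere through E-cadherin and carry keratin filaments, which form from pairs of a type I and a type II keratin. In epithelial-mesenchymal transition, cells trade E-cadherin for N-cadherin and keratins for vimentin, under repressors of the Snai and Zeb families, while the Esrp proteins maintain the epithelial pattern of splicing. Naive ESC and the early epiblast both express E-cadherin, and Krt8 with Krt18 is the first keratin pair of the mouse embryo.

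Of the 10 genes, 6 matched RefSeq's promoter table, and the 250 bases upstream of the annotated start are printed for the 3 keratin genes on chromosome 15, which were higher together in EpiLC, and for Vim, the gene lower there. The windows are chr15:101412153-101412402 for Krt7 (plus strand), chr15:102004343-102004592 for Krt8 (minus strand), chr15:102027966-102028215 for Krt18 (plus strand) and chr2:13574061-13574310 for Vim (plus strand), in build GRCm38.p6. Each is written 5′ to 3′ on the gene's strand. Capitals mark letters that match an E-box of the form CACCTG (read as CAGGTG on the other strand), the AP-2 motif GCCNNNGGC or the TATA box TATAAA.
Krt7: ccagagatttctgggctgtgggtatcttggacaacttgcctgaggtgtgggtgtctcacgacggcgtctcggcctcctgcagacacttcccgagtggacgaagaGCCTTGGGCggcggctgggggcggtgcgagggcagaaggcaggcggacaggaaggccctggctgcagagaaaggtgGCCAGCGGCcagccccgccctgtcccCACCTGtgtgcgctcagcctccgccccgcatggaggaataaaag
Krt8: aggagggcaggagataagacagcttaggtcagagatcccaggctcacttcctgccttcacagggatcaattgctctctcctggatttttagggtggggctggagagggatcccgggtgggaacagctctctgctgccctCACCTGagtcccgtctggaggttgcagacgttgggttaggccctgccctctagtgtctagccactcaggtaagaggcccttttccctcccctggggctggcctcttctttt
Krt18: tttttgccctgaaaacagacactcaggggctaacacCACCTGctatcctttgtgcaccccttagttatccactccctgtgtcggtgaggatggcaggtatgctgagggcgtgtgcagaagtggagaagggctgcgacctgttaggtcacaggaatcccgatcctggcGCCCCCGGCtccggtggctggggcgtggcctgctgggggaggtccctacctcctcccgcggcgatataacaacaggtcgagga
Vim: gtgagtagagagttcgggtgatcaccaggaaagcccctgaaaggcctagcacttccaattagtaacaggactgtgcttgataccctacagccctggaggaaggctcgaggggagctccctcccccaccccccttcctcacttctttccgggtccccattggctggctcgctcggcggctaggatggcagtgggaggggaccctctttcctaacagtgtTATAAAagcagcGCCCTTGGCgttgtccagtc

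The 3 keratin windows each hold 1 CACCTG, the form of E-box bound by Snai and Zeb factors, and 17.1% of 27025 mouse promoter windows of this length hold one on either strand. The Epcam window, searched but not printed, holds matches that begin at -187 and -19 from the start, and the Vim and S100a6 windows hold none. The AP-2 motif occurs 2 times in the Krt7 window, 1 time in Krt18 and 1 time in Vim, and 13.6% of promoter windows hold it. The Vim window alone of these 4 holds TATAAA, present in 12.9% of windows. The GC box GGGCGG, left in lower case, occurs 4 times in the Krt7 window, where 1 match overlaps an AP-2 match, and 32.7% of windows hold it. The AP-1 motif TGANTCA (6.87% of windows) and the forkhead motif GTAAACA (3.12%) are in none of the 6 windows searched. These matches describe letters in the windows and were not tested for use.

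The 12 samples were read on 19 arrays in 2 hybridization rounds, 11 arrays in the first and 8 in the second. The EpiLC ethanol samples and EpiLC tamoxifen sample 1 were read in round 1 alone, and ESC ethanol sample 1 in round 2 alone. Fits on round 1 arrays therefore rest on 2 ESC ethanol samples, so they change the samples as well as the round. Between 10330 and 11481 of the 25697 probes per array were detected, meaning a detection p under 0.01 against the negative control beads. The cells carried the markers of their labels: Fgf5, a marker of formative epiblast, was at least 45.2-fold higher in EpiLC than in ESC in ethanol, and Klf4, of naive ESC, was at least 14.5-fold lower. Values below are log2 normalized intensities, 1 per sample, listed in the order of samples 1, 2 and 3. Changes are differences of group means on this scale with the standard error (SE) of the limma fit and n = 3 per group. Adjusted p values are Benjamini-Hochberg values over the 9422 features tested, and a gene was called where this was under 0.05. The labels do not state separate cultures for the samples of a group. The p values therefore reflect sample-to-sample spread that may be technical.

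In ethanol, EpiLC differed from ESC chiefly in Esrp1 and in the keratins, while Cdh1 showed no called difference. Of the 8 genes tested, Esrp1, Krt7, Krt8, Krt18 and Krt19 were called higher in EpiLC, Vim was called lower, and Cdh1 and S100a6 were not called. These 6 calls compare with 56.3% of all features called in this contrast (29.8% higher and 26.5% lower), and the 6 genes whose groups did not overlap compare with 62.1%. The median change of the 8 genes was 1.5, beside 0.03 over all features.

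Cdh1, which encodes E-cadherin, lies on chr8:106603350-106670247. Its values were 10.99, 10.98 and 11.07 in ESC ethanol and 11.13, 10.92 and 11.02 in EpiLC ethanol. The groups overlapped, and the difference of 0.01 (SE 0.09, limma adjusted p = 0.930) was smaller than the spread between samples. With tamoxifen the Cdh1 values were 10.88, 11.15 and 11.08 for ESC and 11.31, 11.25 and 11.28 for EpiLC. The 3 EpiLC tamoxifen samples were the highest of the 12, above every other sample. EpiLC against ESC in tamoxifen gave 0.24 (adjusted p = 0.0405). This call was lost without ESC tamoxifen sample 1 (0.156) or 3 (0.0591) and without EpiLC tamoxifen sample 1 (0.0920), 2 (0.0644) or 3 (0.0879). Scaling to equal medians also ended it (0.08, adjusted p = 0.478), as did the round 1 arrays alone (0.13, adjusted p = 0.404) and testing without the filter on dim probes (0.24, adjusted p = 0.0559). From lowest to highest the group means ran ESC ethanol, EpiLC ethanol, ESC tamoxifen and EpiLC tamoxifen, and only the last step separated groups that did not overlap.

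Cdh2, which encodes N-cadherin, lies on chr18:16588877-16809246 and was read by 4 probes. None was detected on any of the 19 arrays. Their smallest detection p values were 0.0501, 0.0451, 0.489 and 0.603. Raw intensity of the brightest probe was 142.4 to 148 in ESC ethanol, 143.5 to 167.1 in ESC tamoxifen, 154.5 to 161.5 in EpiLC ethanol and 141.5 to 159 in EpiLC tamoxifen on round 1 arrays. No Cdh2 probe passed the detection threshold in any group, and no order of the groups can be read from these values.

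Esrp1, the epithelial splicing regulatory protein that favours epithelial isoforms, lies on chr4:11331933-11386783 and showed the steepest difference of the set. Its values were 6.06, 5.11 and 5.33 in ESC ethanol and 11.68, 11.62 and 11.62 in EpiLC ethanol. The probe was detected on 1 of 5 ESC ethanol arrays, on 3 of 6 ESC tamoxifen arrays and on all EpiLC arrays. The fitted difference in ethanol was 6.14 (SE 0.26, adjusted p = 5.04e-09), or 51.2-fold with each array below its lowest detected signal raised to it. It ranked in position 3 of 9422 features by increase. Without background correction the change was 4.20, and it was 4.19 in the normalized values of the authors, with no change of call. With tamoxifen the Esrp1 values were 6.12, 5.64 and 5.05 for ESC and 11.56, 11.45 and 11.58 for EpiLC. The difference there was 5.93 (SE 0.26, adjusted p = 7.73e-09), or 48.7-fold with dim arrays at the lowest detected signal. Neither ESC group was separated from the other, and both EpiLC groups stood far above them. Its paralog Esrp2 was not called between the cell types in ethanol, at -0.18 (adjusted p = 0.446).

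**Figure D1:**
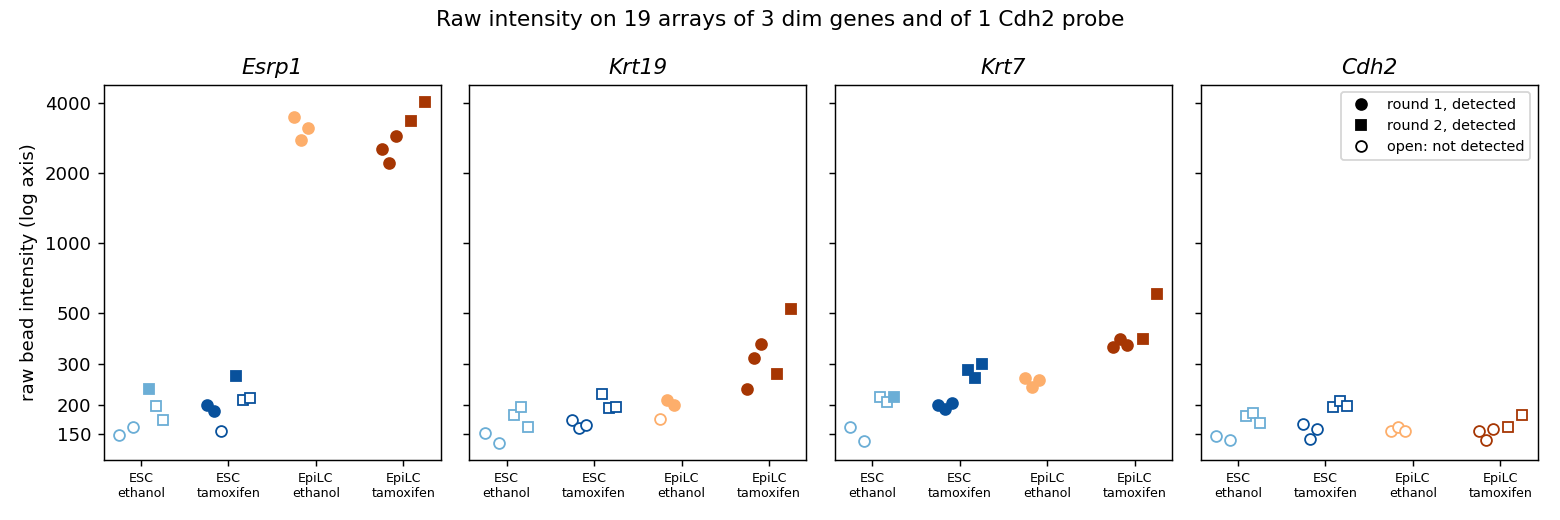
Raw bead intensity (log axis) of Esrp1, Krt19, Krt7 and the brightest of the Cdh2 probes on the 19 arrays, by group; circles are round 1, squares are round 2, and filled points were detected. Esrp1 is at 2212 to 4050 on the EpiLC arrays and at 149 to 268 on the ESC arrays, whereas the Cdh2 probe is detected on 0 of 19 arrays.

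The keratins of simple epithelia rose from ESC to EpiLC. Krt8, the type II partner of Krt18, lies on chr15:101996711-102004342. Its values were 9.12, 9.0 and 8.67 in ESC ethanol and 11.33, 10.89 and 11.43 in EpiLC ethanol. Every EpiLC sample lay above every ESC sample, and the change of 2.29 (SE 0.20, adjusted p = 1.43e-06) corresponds to 4.88-fold. Krt18, a type I keratin, lies on chr15:102028216-102032026. It had values of 6.39, 6.89 and 6.77 in ESC ethanol and 10.14, 9.91 and 10.23 in EpiLC ethanol. The groups did not overlap, and Krt18 was 10.7-fold higher in EpiLC (log2 3.41, SE 0.19, adjusted p = 4.89e-08). In the authors' normalized table the Krt18 change was 2.31, still called.

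Krt7 and Krt19 followed at lower signal. Krt7, a type II keratin of ducts and glands (chr15:101412403-101427806), stood at 5.52, 5.56 and 5.43 in ESC ethanol and at 7.39, 7.13 and 7.29 in EpiLC ethanol. It was detected on 1 of 5 ESC ethanol arrays and on all 3 EpiLC ethanol arrays. The fitted change was 1.77 (SE 0.15, adjusted p = 1.39e-06), and 2.29-fold with dim arrays raised to the lowest detected signal. Krt19, a type I keratin that lacks most of the usual tail domain (chr11:100140810-100145926), was detected on 0 of 5 ESC ethanol arrays and on 2 of 3 EpiLC ethanol arrays. Its values were 4.84, 5.16 and 4.68 in ESC ethanol and 6.32, 5.37 and 6.68 in EpiLC ethanol. Krt19 was at least 1.13-fold higher in EpiLC (adjusted p = 0.0131), a call lost without EpiLC ethanol sample 3 (0.0568), in the authors' normalized table (0.0511) and without background correction (0.0570).

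Vim, the type III intermediate filament of mesenchymal cells, lies on chr2:13574311-13582826 and ran opposite to the keratins. Its values were 10.75, 10.89 and 10.85 in ESC ethanol and 10, 10 and 10.15 in EpiLC ethanol. All ESC ethanol samples lay above all EpiLC ethanol samples, and Vim fell by 0.78 (SE 0.12, adjusted p = 0.000143). The call was kept in each of the 14 alternatives run for this comparison, with changes between -0.83 and -0.71. S100a6, an EF-hand protein also called calcyclin (chr3:90612894-90614414), was at 8.35, 8.95 and 8.65 in ESC ethanol and at 8.12, 8.41 and 8.55 in EpiLC ethanol. The groups overlapped and the difference of -0.29 (SE 0.17) was not called (adjusted p = 0.171), though it was on round 1 arrays alone (-0.54, adjusted p = 0.0334).

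**Figure D2:**
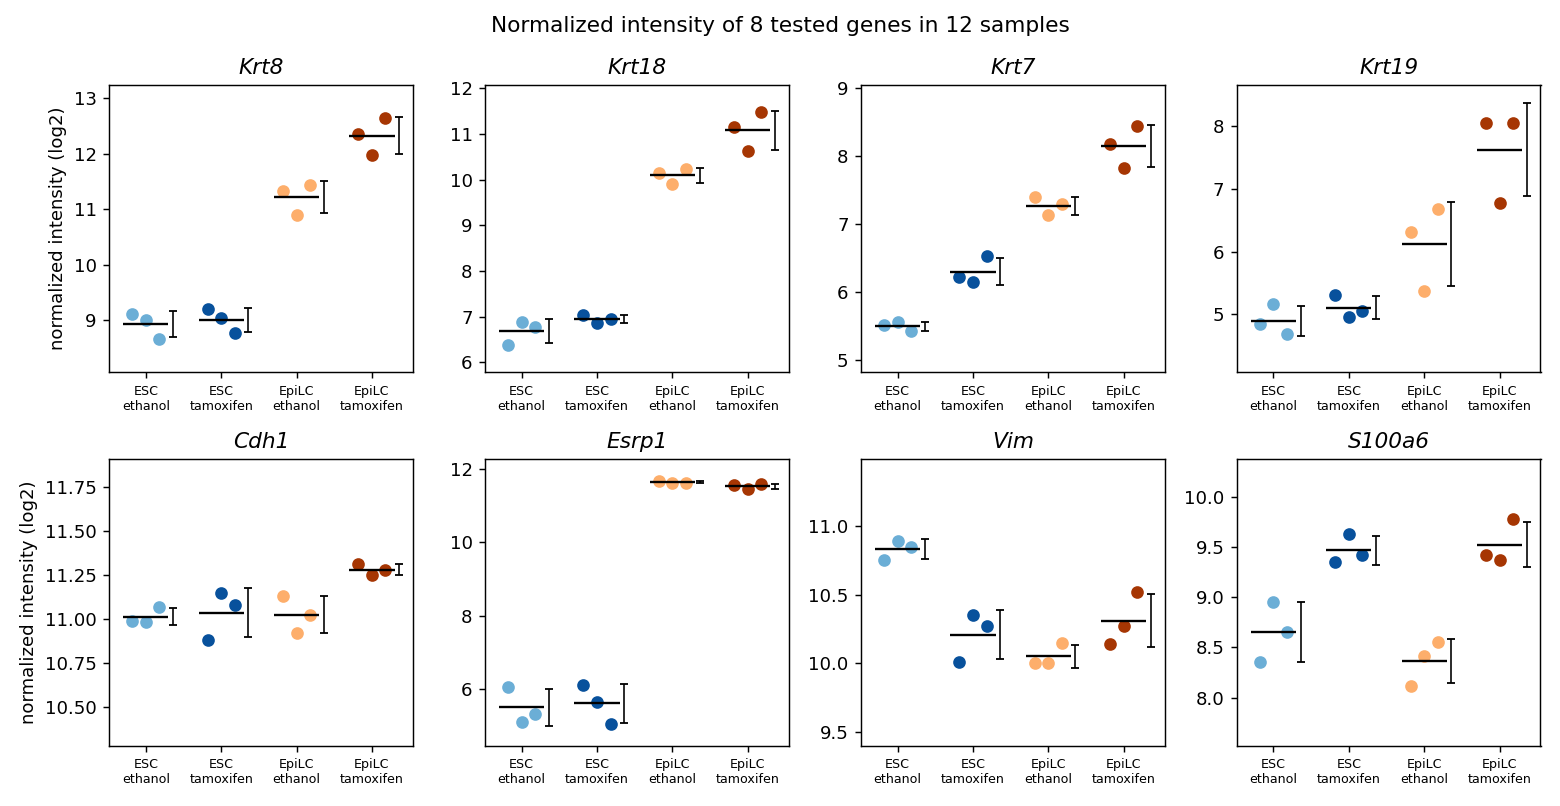
Log2 normalized intensity of the 8 tested genes in the 12 samples; each point is a sample (1, 2, 3 from left to right), the horizontal line is the group mean and the bar beside it is ± 1 SD (n = 3). Esrp1 and the 4 keratins are highest in EpiLC, Vim is highest in ESC ethanol, and S100a6 separates by treatment in both cell types.

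Genes that act with the set in epithelia were called in both directions in EpiLC against ESC, where 29.8% of all features were called higher and 26.5% lower. Among 16 tested junction and polarity genes, 10 were called higher and 3 lower in EpiLC in ethanol (median change 0.67). Cldn6, a tight junction claudin, rose by 4.44 (SE 0.18), or 21.8-fold, and Marveld3, a further tight junction protein, was at least 5.56-fold higher. Lsr, of tricellular junctions, rose by a fitted 3.16 (SE 0.12, detected on 1 of 5 ESC ethanol arrays), and the scaffold Patj rose by 2.23 (SE 0.22). Among 17 epithelial regulators and surface proteins, 8 were called higher and 4 lower (median 0.44). The membrane protease Prss8 rose by 2.99 (SE 0.12) and the transcription factor Grhl2 by a fitted 2.79 (SE 0.28, detected on 2 of 5 ESC ethanol arrays), whereas its relative Grhl3 was at least 4.05-fold lower. Among 5 cadherins and catenin partners, 2 were higher and 1 lower, with P-cadherin (Cdh3) up by 1.46 (SE 0.15) and vinculin (Vcl) by 0.63 (SE 0.15).

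The repressors and mesenchymal genes did not move as a block. Of 7 tested transcription factors of epithelial-mesenchymal transition, 3 were called higher and 2 lower in EpiLC (median 0.25). Zeb1, a repressor of epithelial genes, fell by 3.43 (SE 0.26, 10.8-fold, detected on 2 of 3 EpiLC ethanol arrays) and Gsc, a homeobox factor, fell by 1.75 (SE 0.27). Snai3 rose by 3.64 (SE 0.20), or 12.5-fold, and Twist1 by 1.34 (SE 0.11). Snai1 was not called, at 0.25 (adjusted p = 0.235), and Zeb2 was detected on 0 arrays. Of 11 tested mesenchymal and matrix genes, 4 were higher and 6 lower (median -0.36), among them the gelatinase Mmp2 (up by 2.57, SE 0.11) and smooth muscle actin Acta2 (which fell by 1.78, SE 0.18). Collagen genes Col1a1, Col1a2 and Col3a1 were detected on 0 of 19 arrays.

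Other filament genes and relatives of S100a6 were also split. Of 13 other keratin and filament genes, 6 were higher and 3 lower in EpiLC in ethanol (median 0.30). Krt42, a type I keratin, fell by 3.41 (SE 0.20, 10.7-fold, detected on 2 of 3 EpiLC ethanol arrays), while the neuronal filament genes Prph and Ina were at least 3.13-fold higher and up by 1.96 (SE 0.12). Of 14 S100 and annexin genes, 2 were higher and 6 lower (median -0.28), and S100a13 fell by 2.01 (SE 0.20) and Anxa6 by 1.3 (SE 0.10).

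**Figure D3:**
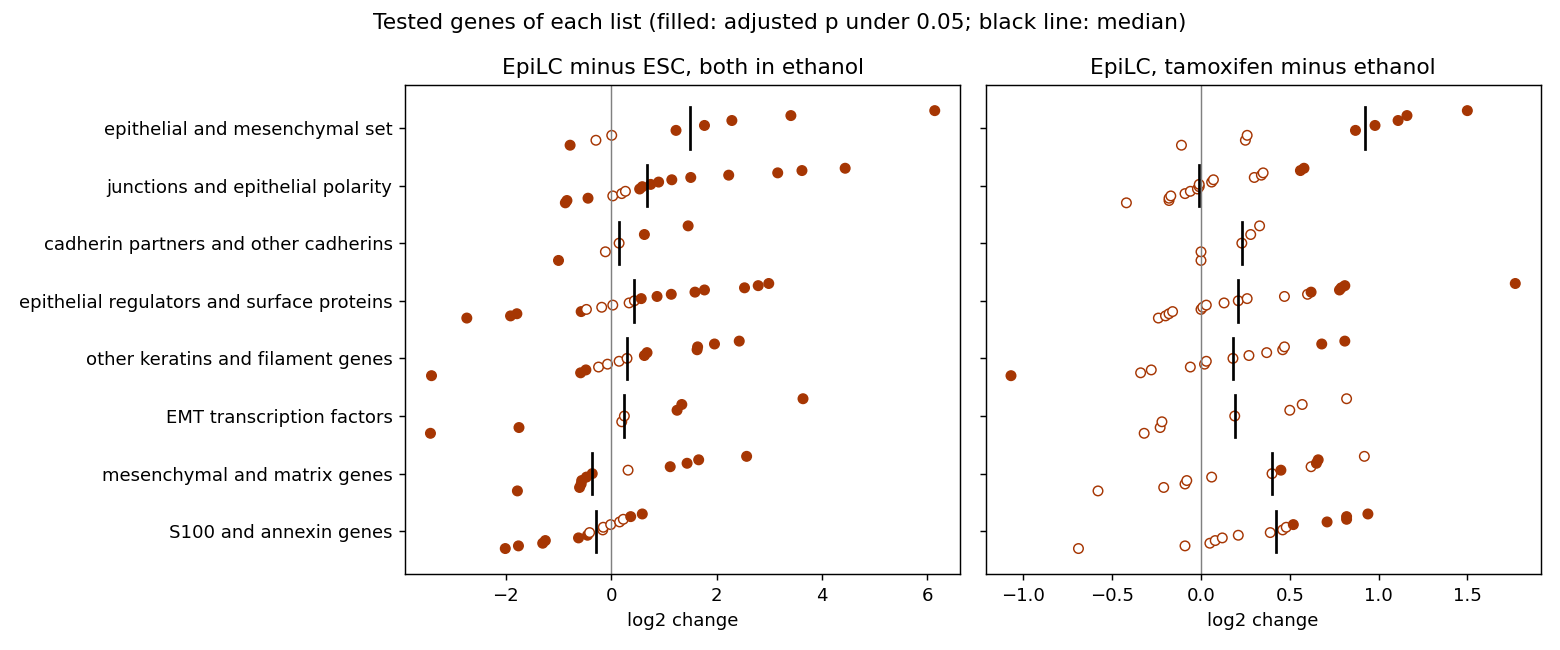
Log2 changes of the tested genes of each list, for EpiLC minus ESC in ethanol (left) and for tamoxifen minus ethanol in EpiLC (right); each point is a gene, filled where the adjusted p was under 0.05, and black lines are medians. In the left panel the median of the 8 set genes is 1.5 and that of the mesenchymal list is -0.36; in the right panel the medians are 0.92 and 0.40.

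Tamoxifen changed part of the set in ESC: Krt7 and S100a6 rose, Vim fell, and Krt8, Krt18, Krt19, Cdh1 and Esrp1 were not called. These 3 calls of 8 compare with 9.10% of all features called (5.59% higher and 3.50% lower), and the 3 genes whose groups did not overlap compare with 32.6%. The median change of the 8 genes was 0.16, beside -0.01 over all features. The ESC arrays were brighter with tamoxifen before normalization, with median intensities of 149 to 154 against 166 to 176 in round 1 and 193 to 206 against 206 to 220 in round 2, and the part of this in the changes was not tested. Over all features 527 were called higher and 330 lower, and scaling to equal medians, which moved the median change to 0.09, gave 797 and 120. On round 1 arrays alone, which lack ESC ethanol sample 1, 1 of the 8 genes was called, which was Vim.

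Vim in ESC tamoxifen was at 10.01, 10.35 and 10.27, below all 3 ethanol samples given above. It fell by 0.62 (SE 0.12, adjusted p = 0.00722), with the paired differences at -0.73, -0.54 and -0.58. The call was kept in each of the 15 alternatives run, including round 1 arrays (-0.67) and round 2 arrays (-0.61). Vim in ESC tamoxifen thereby overlapped EpiLC in both treatments, and EpiLC against ESC in tamoxifen gave 0.10 (adjusted p = 0.503).

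S100a6 in ESC tamoxifen was at 9.35, 9.63 and 9.42, above every ethanol sample of either cell type. It rose by 0.82 (SE 0.17, 1.76-fold, adjusted p = 0.0123), a call lost without ESC tamoxifen sample 2 (0.73, adjusted p = 0.0503) and on round 1 arrays (0.57, adjusted p = 0.121). Krt7 in ESC tamoxifen was at 6.23, 6.15 and 6.53 and was detected on 6 of 6 arrays, against 1 of 5 in ethanol. Its fitted change of 0.80 (SE 0.15, adjusted p = 0.00713) corresponds to 1.23-fold with dim arrays raised to the lowest detected signal. The Krt7 call was lost on round 1 arrays (adjusted p = 0.0884), in the authors' normalized table (0.24, adjusted p = 0.0799) and without background correction (0.24, adjusted p = 0.102).

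The other keratins showed no called change in ESC. Krt8 was at 9.20, 9.05 and 8.78 in tamoxifen, interleaved with ethanol, and its change was 0.08 (95% interval -0.35 to 0.51, adjusted p = 0.851). Krt18 was at 7.04, 6.86 and 6.94, with a change of 0.26 (interval -0.16 to 0.69, adjusted p = 0.455). Krt19 was at 5.31, 4.96 and 5.05 and was detected on 0 of 6 arrays. It was undetected in ESC ethanol as well, so neither a fold nor a bound is given for its change in ESC. For Cdh1 the change was 0.02 (interval -0.18 to 0.22, adjusted p = 0.907) and for Esrp1 it was 0.10 (adjusted p = 0.854).

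In EpiLC tamoxifen raised the 4 keratins and S100a6, while Cdh1, Vim and Esrp1 were not called. These 5 calls, all upward, compare with 6.90% of all features called (4.75% higher and 2.14% lower). Groups did not overlap for 7 of the 8 genes, beside 24.7% of features. The median change was 0.92, beside -0.02 over all features, and scaling to equal medians, which moved the median of all features to -0.09 and their split from 448 higher and 202 lower to 316 and 241, kept the count of 5. Sample numbers paired ethanol with tamoxifen samples within each cell type, and with the number as a block 6 genes were called, Vim being the addition.

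Krt8 in EpiLC tamoxifen was at 12.35, 11.98 and 12.64, each above all ethanol samples. It rose by 1.11 (SE 0.20, 2.16-fold, adjusted p = 0.00675), and the differences of same-numbered samples were 1.02, 1.09 and 1.22. Krt18 was at 11.14, 10.62 and 11.47. Its groups did not overlap either, and it rose by 0.98 (SE 0.19, 1.97-fold, adjusted p = 0.0122), with paired differences of 1.00, 0.71 and 1.23. Both keratin calls were kept in every alternative run. For each of the 4 keratins, sample 2 was the lowest of the 3 EpiLC samples under both treatments.

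Krt7 was at 8.17, 7.82 and 8.44 in EpiLC tamoxifen and was detected on every EpiLC array. All tamoxifen values exceeded all ethanol values, and Krt7 rose by 0.87 (SE 0.15, adjusted p = 0.00625). Krt19 was at 8.05, 6.77 and 8.06 and was detected on 5 of 5 arrays. It rose by 1.5 (SE 0.37, 2.83-fold, adjusted p = 0.0321), ranking in position 14 of 9422 by increase, with paired differences of 1.72, 1.40 and 1.38. The Krt19 call was lost without EpiLC ethanol sample 1 (adjusted p = 0.0600) or 2 (0.0820), without EpiLC tamoxifen sample 1 (0.0913) or 3 (0.117) and on round 1 arrays (0.0520).

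The 4 keratins together can be read as a summed linear intensity. It was 585 to 714 in ESC ethanol, 687 to 834 in ESC tamoxifen, 3040 to 4220 in EpiLC ethanol and 5960 to 9840 in EpiLC tamoxifen. Krt8, the brightest of the 4 keratins, weighs most in this sum. The EpiLC groups did not overlap, and the ESC groups did. By sample number the ESC sums were 714, 714 and 585 in ethanol and 834, 747 and 687 in tamoxifen, higher with tamoxifen in all 3 pairs. Krt8 alone was also higher in all 3 ESC pairs (0.08, 0.05 and 0.11), and it was not called with the block (adjusted p = 0.416). For Krt7, Krt8, Krt18 and Krt19 alike the order of group means from lowest to highest was ESC ethanol, ESC tamoxifen, EpiLC ethanol and EpiLC tamoxifen. The 2 ESC groups overlapped for Krt8, Krt18 and Krt19, and were separate for Krt7. Krt19 was detected on 0 ESC arrays, so no order of its ESC groups can be read. In bulk RNA a larger share of keratin-expressing cells and more keratin RNA per cell cannot be told apart.

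S100a6 in EpiLC tamoxifen was at 9.42, 9.37 and 9.78, above all ethanol samples. It rose by 1.16 (SE 0.17, 2.24-fold, adjusted p = 0.00293), a call kept in every alternative run. In tamoxifen the S100a6 samples of both cell types overlapped, with a difference of 0.06 (adjusted p = 0.798). Cdh1 in EpiLC rose past no threshold, with a change of 0.25 (interval 0.05 to 0.45, adjusted p = 0.124), and was called in the authors' normalized table alone (0.24, adjusted p = 0.0372). Vim in EpiLC tamoxifen was at 10.14, 10.27 and 10.52, overlapping ethanol by the highest ethanol sample, with a change of 0.26 (SE 0.12, adjusted p = 0.216). With the number as a block its adjusted p was 0.0461. For Esrp1 the change was -0.11 (SE 0.26, adjusted p = 0.863), although the groups of 3 did not overlap.

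**Figure D4:**
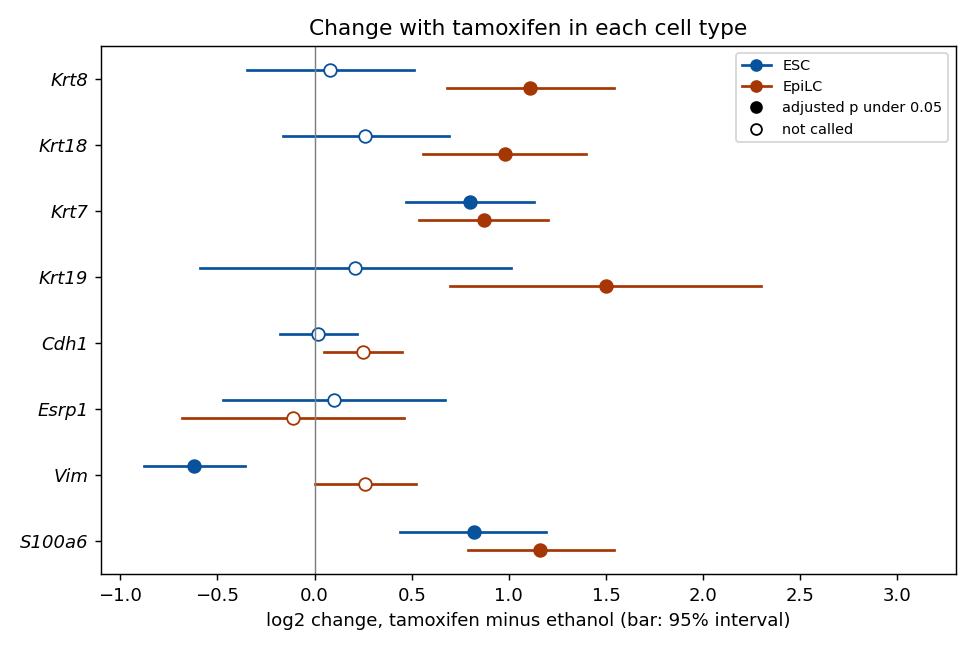
Log2 change with tamoxifen of each tested gene in ESC (blue) and EpiLC (orange), with 95% intervals of the limma fit without the sample block. Filled points had an adjusted p under 0.05 in that fit. Krt7 and S100a6 are above 0 in both cell types, Krt8, Krt18 and Krt19 are filled in EpiLC alone, and Vim lies at -0.62 in ESC and 0.26 in EpiLC.

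The difference between the tamoxifen effects was tested directly, as EpiLC minus ESC. Of the 8 genes, 1 was called, beside 2.59% of features (1.41% higher and 1.18% lower): the Vim effect was higher in EpiLC by 0.88 (SE 0.17, adjusted p = 0.0207). This Vim call was lost without ESC ethanol sample 3 (0.87, adjusted p = 0.0573) and on round 1 arrays (0.95, adjusted p = 0.0514). For Krt8 the difference was 1.03 (SE 0.28, adjusted p = 0.0834), and 0.00243 with the number as a block. It was also called in the authors' normalized table (0.0178), without background correction (0.0325) and without EpiLC tamoxifen sample 2 (0.0495). For Krt19 it was 1.29 (adjusted p = 0.236, and 0.00921 with the block). Krt19 was detected on 0 ESC arrays of either treatment, so the ESC effect in its difference lies below detection. Krt18 gave 0.72 (adjusted p = 0.213, and 0.0602 with the block) and was called in the authors' normalized table alone (0.82, adjusted p = 0.0472). Krt7 gave 0.07 (0.901), S100a6 gave 0.35 (0.516), Cdh1 gave 0.23 (0.403) and Esrp1 gave -0.22 (0.814). With the block, 3 of the 8 genes were called, which were Vim, Krt8 and Krt19, beside 12.1% of features. Over all features 133 differences were called higher and 111 lower, and 78 and 258 on scaling to equal medians, which moved the median difference to -0.18.

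EpiLC and ESC were also compared in tamoxifen, where the keratins were again higher in EpiLC. Of the 8 genes 6 were called higher and 0 lower, beside 56.6% of features called (29.4% higher and 27.1% lower), and 6 did not overlap, beside 63.8%. Over all features 2772 were called higher and 2558 lower, and 2098 and 3008 on scaling to equal medians, which moved the median change to -0.10 and left 5 of the 8 genes called. Krt8 was 9.95-fold higher (log2 3.32, SE 0.20, adjusted p = 7.48e-08) and Krt18 17.5-fold higher (log2 4.13, SE 0.19, adjusted p = 1.23e-08). Krt7 was higher by 1.84 (adjusted p = 1.09e-06), and Krt19, detected on 0 of 6 ESC tamoxifen arrays, was at least 3.54-fold higher (adjusted p = 0.000110). This contrast shares samples with the others, so it adds no independent evidence.

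Among genes that act with the set, some rose with tamoxifen in both cell types. Sfn, the 14-3-3 protein of epithelia, rose by 1.43 (SE 0.18) in ESC and by 1.77 (SE 0.18) in EpiLC, and the RNA-binding protein Rbm47 by 0.78 and 0.79 (SE 0.12 each). Of the 17 epithelial regulators and surface proteins, 4 rose and 0 fell in ESC, and 5 rose and 0 fell in EpiLC (medians -0.02 and 0.21). With the block, 5 rose and 1 fell in ESC and 6 rose and 0 fell in EpiLC, beside 21.7% and 20% of all features called with the block. Klf5, a factor of both epithelia and naive cells, rose by 0.62 (SE 0.10, adjusted p = 0.00374) in EpiLC and had -0.31 (adjusted p = 0.0668) in ESC. Among S100 and annexin genes, 3 of 14 rose in ESC and 5 in EpiLC, with 0 lower in each (medians 0.14 and 0.43). With the block these were 3 and 0 in ESC and 7 higher and 1 lower in EpiLC. Anxa2 rose by 0.67 and 0.82 (SE 0.09 each) and Anxa3 by 0.93 and 0.94 (SE 0.12 each), in ESC and EpiLC in turn, and S100a11 rose by 0.82 (SE 0.09) in EpiLC.

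The remaining lists are read against 9.10% of all features called in ESC and 6.90% in EpiLC. Their counts with the block are read against 21.7% in ESC and 20% in EpiLC. On round 1 arrays 393 of the 9422 features were called in ESC. Of 16 junction and polarity genes, 4 rose and 1 fell in ESC (6 and 1 with the block, and 1 and 0 on round 1 arrays), and F11r, a junctional adhesion molecule, rose by 0.87 (SE 0.12, adjusted p = 0.000909). In EpiLC 2 rose and 0 fell (3 and 0 with the block), and the polarity protein Llgl2 rose by 0.58 (SE 0.10, adjusted p = 0.00528). Of 5 cadherins and catenin partners 0 were called in either cell type by limma, while 1 in ESC and 2 in EpiLC had an unadjusted p under 0.05, and 1 in each was called higher with the block. Of 7 transcription factors of epithelial-mesenchymal transition 1 rose in ESC (2 rose and 1 fell with the block) and 0 were called in EpiLC by limma, where 3 had an unadjusted p under 0.05 and 3 rose with the block. Of 11 mesenchymal and matrix genes 0 rose and 1 fell in ESC (1 and 2 with the block), and 3 rose and 0 fell in EpiLC (5 and 1 with the block). Of 13 other keratin and filament genes 1 rose in ESC (2 rose and 2 fell with the block), and 2 rose and 1 fell in EpiLC (5 and 3 with the block).

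Markers of other cell types also differed between the groups. The sums of the trophoblast, primitive endoderm and fibroblast lists ran in orders other than that of the keratins. Single genes did not all do so. Gata2, of the trophoblast list, had log2 means in the keratin order: 7.09 in ESC ethanol, 8.01 in ESC tamoxifen, 8.04 in EpiLC ethanol and 9.14 in EpiLC tamoxifen. The 6 tested trophoblast genes, a cell type that carries Krt7, Krt8, Krt18 and Krt19, had a summed intensity of 4190 to 4820 in ESC ethanol, 7750 to 8800 in ESC tamoxifen, 2460 to 3700 in EpiLC ethanol and 6960 to 8860 in EpiLC tamoxifen. Tfap2c, the brightest of the 6, had log2 means of 11.77, 12.75, 11.11 and 12.64 in these groups and makes up most of each sum. With tamoxifen 2 of the 6 were called higher in ESC and 4 in EpiLC (3 and 5 with the block). Tfap2c (0.98 and 1.53, SE 0.17 each) and Gata2 (0.92 and 1.10) were called in both. Gata3 (1.3, SE 0.21) and Ascl2 (1.02, SE 0.16) were called in EpiLC and not in ESC. Ascl2 was detected on 0 of 5 ESC ethanol arrays and on 1 of 6 ESC tamoxifen arrays. Tamoxifen counts in this paragraph compare with 9.10% of all features called in ESC and 6.90% in EpiLC (21.7% and 20% with the block). Elf5, Hand1 and Plet1, further trophoblast markers, were detected on 0 of 19 arrays, and Eomes on 2 EpiLC tamoxifen arrays alone. The 5 tested primitive endoderm genes summed to 1890 to 2400, 3330 to 4550, 2640 to 2900 and 2650 to 3920 in the same order of groups. In ESC 2 of these 5 rose (4 with the block), Gata6 by 1.93 (SE 0.22) and Dab2 by 1.39 (SE 0.17), and Gata4 and Foxa2 were detected on 0 arrays. The 5 tested fibroblast genes summed to 1780 to 1920, 2170 to 2300, 841 to 959 and 949 to 1280, and 7 others, Col1a1 and Col3a1 among them, were detected on 0 arrays. Acta2, with log2 means of 10.53 in ESC ethanol and 10.94 in ESC tamoxifen, makes up most of the ESC sums. Markers of the pluripotent states moved as well. Of 7 tested naive genes 2 rose and 0 fell in each cell type (medians 0.31 in ESC and 0.54 in EpiLC), and with the block 3 rose in ESC and 5 in EpiLC. In EpiLC the naive factor Tbx3 rose by 1.15 (SE 0.14, adjusted p = 0.000984), and Klf2 rose by 0.54 (SE 0.13, adjusted p = 0.0259), a call lost in 6 of 14 alternatives. The naive sum was 7910 to 10000 in EpiLC ethanol and 9870 to 11900 in EpiLC tamoxifen, which overlapped. In ESC Dppa3 rose by 0.88 (SE 0.24) and Klf4 by 0.45 (SE 0.10), calls lost in 8 and 5 of 15 alternatives. Of 5 formative genes, Fgf5 rose by 0.45 (SE 0.09) and the DNA methyltransferase Dnmt3b fell by 0.41 (SE 0.10) in EpiLC, calls lost in 3 and 7 of 14 alternatives. The formative sum was 33200 to 34900 in EpiLC ethanol and 28000 to 31700 in EpiLC tamoxifen, without overlap. Dnmt3b, the brightest of this list, had log2 means of 14.63 and 14.23 there and weighs most in the sum. The median change of the 5 formative genes was 0.03, so the lower sum does not describe the list as a whole. In ESC Otx2 of this list rose by 0.65 (SE 0.18), and of 6 shared pluripotency genes Pou5f1 fell by 0.31 (SE 0.08), calls each lost in 10 of 15 alternatives. The part of any such cells or states in the changes of the set was not tested.

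The features most like each gene over the 12 sample values were found by Pearson's r, as a description across samples that share arrays and fall into 2 cell types. Esrp1 was closest to Id1 (0.998) and Dusp6 (0.996), Krt8 to Rbbp7 (0.992), Krt18 to Slc2a1 and Tpm1 (0.995 each), Krt7 to Vwa5a (0.985) and Krt19 to Ifi27l2a (0.981). S100a6, which followed treatment more than cell type, was closest to Zfpm1 (0.965) and Tfap2c (0.942). Cdh1 was closest to Rnf166 (0.898), and among named genes Vim was closest to N4bp3 (0.901).

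Technical repeats bound these values. For the 7 samples read in both rounds, the difference between rounds had an SD of 0.08 for Vim, 0.15 for Krt8, 0.18 for Cdh1, 0.24 for Krt18 and Krt19 and 0.25 for S100a6, on the log2 scale. For the dim probes of Krt7 and Esrp1 it was 0.53 and 0.51, so their ESC levels were the least repeatable of the set. The mean shift from round 1 to round 2 was -0.29 for Vim and 0.25 for Cdh1. These shifts are close in size to the EpiLC tamoxifen changes of Vim (0.26) and Cdh1 (0.25). The EpiLC ethanol samples were read in round 1 alone, so their contrasts rest on the fitted correction of the shift.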

How the data were processed

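Per the file headers, the authors' deposited raw table gives linear bead intensity per probe and array, not normalized, with a detection p-value against negative control beads. A second deposited table gives the intensity after normalization by the authors, on a linear scale, with limma named in the submitters' processing notes without version or method. Values under 1 in it, of which 10 lay below 0, entered the log2 step as 1.

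All main values come from the raw table. Background correction used the detection p-values (neqc of limma 3.58.1, R 4.3.3, offset 16), followed by quantile normalization and log2. The 7 samples read on 2 arrays were reduced to 1 value by fitting sample and hybridization round for every probe. The filter asked for a detection p under 0.01 on 3 or more of the 19 arrays and left 12529 probes. Probes were named through gene identifiers (23978 of 25697; 1719 had no entry), and the brightest probe stood for each gene, which gave 9422 features, 8680 with a symbol. No 2 arrays held identical intensities. The number of samples, not of arrays, limits precision, and the smallest exact permutation p for 3 against 3 is 0.1.

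Contrasts were fitted with lmFit and eBayes over all 12 samples, without a sample block. The main calls and intervals of the tamoxifen effects therefore do not use the pairing described below, and the fit with the block was run as an alternative. The script was tested on simulated data. A gene detected on no array of 1 group is given as a bound: the mean of the brighter group over that of the dimmer one after each dim array was raised to its lowest detected signal (log2 5.68 to 6.14). Where a dim group was detected on some arrays, the fitted change is given. Deviations of same-numbered samples from group means correlated at 0.371 to 0.470 in ESC and 0.498 to 0.567 in EpiLC across treatments, so the numbers, taken from sample titles, were treated as pairing these samples. Between the cell types the values were lower, at 0.0584 to 0.253 in ethanol and 0.129 to 0.217 in tamoxifen. These ranges overlap, so they give no ground for pairing samples across the cell types in 1 treatment alone.

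All members are named. From each related list up to 4 called genes with the largest changes per contrast could be named, and those that kept their call in every alternative were preferred; Klf5 and genes named as not called or undetected were chosen after their values were seen. Members and lists were chosen with earlier results of these data known. The alternatives were equal-median scaling, the authors' table, single rounds, other probe filters, the mean over probes, no background correction, the block and leaving out each sample. Promoter sequences are RefSeq's. No sample column lay outside the series.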

Additional observations from a re-analysis of the deposited data

Results flagged for a closer look

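The tamoxifen effect differed between EpiLC and ESC, by the test of the difference itself, for 1 gene of the set and 3 genes of the related lists. Of the cell type markers, Gata6 had -1.85 (SE 0.31, limma adjusted p = 0.0124), Ascl2 1.13 (SE 0.23, 0.0273) and Tbx3 0.84 (SE 0.19, 0.0462). These marker calls were lost in 1, 7 and 16 of 20 alternatives. Over all features 2.59% were called. In the fit with the sample number as a block, 12.1% of all features were called. It called 3 of the 8 genes of the set, among them Krt19, which was detected on 0 ESC arrays. In that fit 1 of 16 junction and polarity genes was higher and 6 were lower, and 2 of 17 epithelial regulators were higher. Of 13 other filament genes 3 were higher and 1 lower. Also called were 1 of 7 transcription factors of epithelial-mesenchymal transition, 4 of 11 mesenchymal genes and 2 of 14 S100 and annexin genes. The 4 genes named next were called in both fits. For Vim the difference was 0.88 (SE 0.17, limma adjusted p = 0.0207, n = 3 per group), with all 3 sample pairs lower in ESC tamoxifen and all 3 higher in EpiLC tamoxifen. Klf5, a transcription factor of epithelia and naive cells, had a difference of 0.93 (SE 0.14, adjusted p = 0.00704), called in all 20 alternatives run. Itga5, the fibronectin receptor subunit, had 0.94 (SE 0.18, adjusted p = 0.0209). The Itga5 call was lost without ESC ethanol sample 3 (0.0576), ESC tamoxifen sample 2 (0.0535) or 3 (0.0520) or EpiLC tamoxifen sample 3 (0.0561), and on round 1 arrays (0.0884). S100a11, a relative of S100a6, had 0.60 (SE 0.13, adjusted p = 0.0317), a call lost in 12 of 20 alternatives. These were scaling to equal medians (0.123), round 1 arrays (0.124) and leaving out any 1 sample other than ESC ethanol sample 1 or EpiLC tamoxifen sample 2 (0.0537 to 0.0800).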

How the results depend on the processing

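With the sample number as a block, features called were 2041 in ESC and 1882 in EpiLC for tamoxifen, and 1144 for the difference of the effects, where 3 of the 8 genes were called. For the comparisons between cell types the block changed no call of a gene named here. On round 1 arrays the features were 393, 335 and 61, and the genes of the set 1 in ESC and 0 for the difference. In the authors' normalized table features were 1070 in EpiLC and 399 for the difference, with 3 genes of the set, and without background correction 2 genes were called for the difference. Leaving out 1 sample gave 530 to 587 features in ESC, 348 to 547 in EpiLC, 4739 to 5021 between cell types in ethanol, 4704 to 5139 between them in tamoxifen, and 108 to 198 for the difference. The genes of the set called were then 2 to 3, 4 to 5, 5 to 6, 5 to 6 and 0 to 2. The difference had 0 of the 8 genes without ESC ethanol sample 3 and 2 without EpiLC tamoxifen sample 2.

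Signs turned for small changes that were not called. In ESC tamoxifen, Cdh1 was -0.05 on round 2 arrays and -0.03 without tamoxifen sample 2. Esrp1 was -0.09 without ethanol sample 2 and -0.15 without tamoxifen sample 1, and Krt8 was -0.05 without ethanol sample 3 and -0.02 without tamoxifen sample 1. For EpiLC against ESC in ethanol, Cdh1 was 0.00, -0.01 and -0.04 without ESC sample 1, ESC sample 2 and EpiLC sample 1. In tamoxifen, Vim was -0.05 and S100a6 -0.09 on scaling to equal medians, and S100a6 was -0.01 on round 1 arrays. Vim was 0.00 without ESC sample 1 and -0.01 without EpiLC sample 3, where S100a6 was -0.07. For the difference of effects, Esrp1 was 0.04 without ESC tamoxifen sample 1, and Krt7 was 0.00 and -0.08 without ESC tamoxifen sample 2 and EpiLC tamoxifen sample 3. Leaving out 1 sample, these changes spanned, in ESC tamoxifen, -0.03 to 0.10 for Cdh1, -0.15 to 0.38 for Esrp1 and -0.05 to 0.19 for Krt8, and, between cell types, -0.04 to 0.06 for Cdh1 in ethanol, -0.01 to 0.18 for Vim and -0.07 to 0.14 for S100a6 in tamoxifen. For the difference of effects they spanned -0.50 to 0.04 for Esrp1 and -0.08 to 0.23 for Krt7. The causes were not tested. Signal over background limits Cdh2 throughout and Esrp1, Krt7 and Krt19 in ESC.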

Other observations

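Further genes related to the set moved with tamoxifen in EpiLC. Esrp2, the paralog of Esrp1, rose by 0.81 (SE 0.19, limma adjusted p = 0.0267), whereas Esrp1 had -0.11. The Esrp2 call was lost without EpiLC ethanol sample 1 (0.0816) or 2 (0.0698), without EpiLC tamoxifen sample 1 (0.0781) or 3 (0.10) and on round 1 arrays (0.0537). Lmna, which encodes the A-type lamins of the nuclear lamina, rose by 0.68 (SE 0.14, adjusted p = 0.0136), and Anxa5, an annexin, rose by 0.71 (SE 0.14, adjusted p = 0.0131). Each was lost without EpiLC tamoxifen sample 3 (Lmna 0.0590, Anxa5 0.0573). Nefm, a neurofilament gene, fell by 1.07 (SE 0.23, adjusted p = 0.0200), a call lost without EpiLC ethanol sample 1 (0.0698) and without EpiLC tamoxifen sample 2 (0.0553) or 3 (0.0584). Krt14, a keratin of stratified epithelia, was detected on 0 of 3 EpiLC ethanol arrays and on 3 of 5 EpiLC tamoxifen arrays.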
